A study of Homo sapiens with 6 samples.

Results

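Known long noncoding RNAs were followed in a human multiple myeloma cell line selected to grow in carfilzomib, LP-1/Cfz, beside its parental line LP-1. A probe set of the array was taken as a member where its only annotated gene was one of 30 listed long noncoding RNAs or a numbered SNHG gene, which gave 94 probe sets of 35 genes among 54613 probe sets on the array. Of these, 22 probe sets of 15 genes formed the snoRNA host class (11 SNHG genes with GAS5, ZFAS1, DANCR and EPB41L4A-AS1), and 72 probe sets of 20 genes were other long noncoding RNAs. Among the listed names, 24 had a probe set of their own. NEAT1, H19, MIR22HG and MIR155HG occurred only on probe sets that also named other genes. The symbols HOTAIRM1 and LINC00152 occurred on none. Names were matched by current symbol only, so an RNA annotated under another symbol may still have been read. A further 13 SNHG genes occurred only on probe sets naming several genes, and these shared probe sets are described apart from the members.

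The study asked how myeloma cells that had become resistant to carfilzomib, an irreversible proteasome inhibitor, differed from the cells they came from. LP-1/Cfz cells tolerated 12 nM carfilzomib and were harvested after 1 week without it, whereas LP-1 cells had never been selected in it, and both were grown in medium with, by the sample labels, 4% serum (the paper's culture text gives another share). Total RNA of 3 LP-1/Cfz and 3 LP-1 samples was hybridised to 1 array each. One derived line was thus set beside one parental line, and the labels leave unsaid whether each triplicate was its own culture, so the spread between arrays may be technical. In bulk RNA of this kind, fewer cells of a type and less RNA per cell cannot be told apart.

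Long noncoding RNAs are transcribed and usually spliced like messenger RNAs but are not known for a protein product. snoRNA host genes carry small nucleolar RNAs in their introns, which guide the modification of ribosomal RNA, while the spliced host RNA is often short lived and cleared by nonsense-mediated decay during translation. Others act in the nucleus, as NEAT1 does as the scaffold of paraspeckles and MALAT1 in nuclear speckles, or serve as the primary transcript of microRNAs.

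All values below are log2 signals relative to the mean of the 3 LP-1 arrays for the same probe set, so they compare the lines and not one gene with another. A probe set passed when limma gave a Benjamini-Hochberg adjusted p under 0.05 over all probe sets. The 94 member probe sets shifted about as little as the array as a whole, with a median absolute difference of 0.0932 against 0.105 for all probe sets. Of the 94, 7 passed, 3 higher and 4 lower in LP-1/Cfz, which is 7.45% of them, against 11.0% of all probe sets (4.25% higher and 6.76% lower). Among all probe sets that name 1 gene, as the members do, 12.7% passed. By gene, with probe sets averaged, 4 of 35 passed against 16.7% of all genes. The 3 arrays of one line lay entirely above or below those of the other for 29 member probe sets, 16 higher and 13 lower, beside 30.7% of all probe sets. No member differed by 1.7-fold or more between group means, the cutoff the study used for this line, which 1.59% of all probe sets reached. Of the 57 shared probe sets, 3 reached it, those of NEAT1, PVT1 and MIR155HG with the largest differences.

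The median difference of the snoRNA host probe sets was -0.06 on the log2 scale, against 0.03 for the other long noncoding RNAs and 0.02 for all probe sets, and 13 of 22 host probe sets were negative against 27 of 72 others. Host probe sets passed in 2 cases, both lower, and other members in 5, 3 higher and 2 lower. The host median rested on 1 array. LP-1/Cfz replicate 3 stood apart from the other 5 arrays in spread (interquartile range of centred values 0.338, against 0.230 to 0.264). On it the host probe sets had a median of -0.08, against -0.02 and 0.00 on replicates 1 and 2. All members together had a median of -0.06 on it, against 0.03 and 0.06. Without that array the median difference of the hosts was 0.02. With probe sets averaged by gene it was -0.0115, and with the shared probe sets added -0.00738, so the hosts were not shown to shift as a class.

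**Figure D1:**
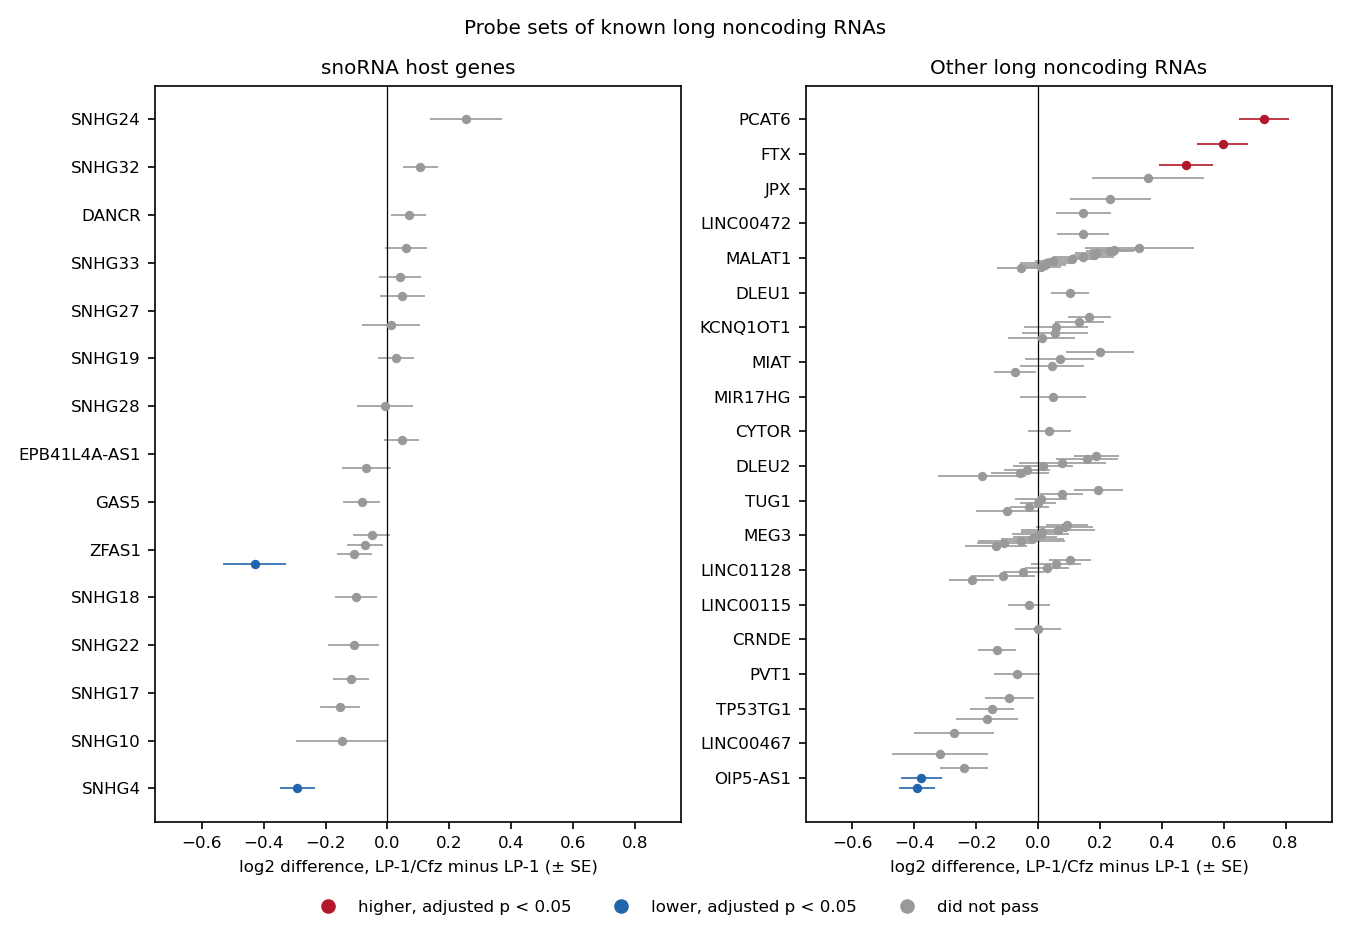
Log2 difference (LP-1/Cfz minus LP-1, n = 3 arrays each) of the 94 member probe sets on the horizontal axis, with 1 row per gene; bars are standard errors and colours mark the probe sets that passed limma's adjusted p. Most points lie within 0.2 of 0, with PCAT6 and FTX to the right and OIP5-AS1, SNHG4 and 1 ZFAS1 probe set to the left.

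Among the snoRNA hosts, SNHG4 and one probe set of ZFAS1 were lower in LP-1/Cfz. SNHG4 lies on chromosome 5 and holds snoRNAs of the H/ACA class. Its probe set read -0.28, -0.30 and -0.29 in LP-1/Cfz and 0.01, -0.03 and 0.02 in LP-1. The groups were well separated and the spread within each was small. The difference was -0.29 (SE 0.0569, n = 3 and 3, limma adjusted p = 0.0151). It no longer passed without LP-1 replicate 1 (adjusted p = 0.0697) or replicate 3 (adjusted p = 0.0720). None of the 9 further probe sets that list SNHG4 with MATR3, the nuclear matrix protein gene at the same locus, passed, and their differences ran from -0.13 to 0.16. SIL1, the protein-coding neighbour before SNHG4, passed higher (0.42, limma adjusted p = 0.0154). PAIP2, on the other side, did not pass. Of the 20 measured protein-coding genes nearest to SNHG4, 5 were higher and 0 lower.

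ZFAS1, a host of C/D box snoRNAs beside ZNFX1 on chromosome 20, was read by 4 probe sets that did not behave alike. Probe set 229899_s_at read -0.32, -0.39 and -0.57 in LP-1/Cfz and -0.18, 0.15 and 0.03 in LP-1. The LP-1 arrays were scattered, but all 3 lay above the LP-1/Cfz arrays. Its difference was -0.43 (SE 0.102, limma adjusted p = 0.0344), and the call was lost when any LP-1/Cfz array or LP-1 replicate 2 or 3 was left out (adjusted p = 0.0547 to 0.118). The other 3 ZFAS1 probe sets differed by -0.11, -0.07 and -0.05 and did not pass (adjusted p = 0.296 to 0.660). ZNFX1, whose gene starts 121 bases away in the RefSeq annotation, was lower by 0.89 on the log2 scale (limma adjusted p = 0.000146). The wider neighbourhood went mostly the other way. Of the 20 measured protein-coding genes nearest to ZFAS1, 7 were higher and 2 lower, with a median of 0.10. Over all genes, 16.7% passed in either direction.

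GAS5, a host of many C/D box snoRNAs that is named for its build-up in growth-arrested cells, showed no difference that passed. Its own probe set read -0.11, -0.07 and -0.06 in LP-1/Cfz and 0.04, 0.00 and -0.05 in LP-1. The LP-1/Cfz arrays were all lower, by a small margin. The difference was -0.08 (limma adjusted p = 0.449), and the 4 probe sets that list GAS5 with its snoRNAs ran from -0.20 to 0.04 (lowest adjusted p = 0.0954). The RefSeq annotation places 11 snoRNA genes inside GAS5.

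The remaining hosts did not pass. SNHG24 had a difference of 0.25 (limma adjusted p = 0.234), SNHG32 of 0.11, DANCR of 0.07 and SNHG19 of 0.03. SNHG33 and SNHG27 each had 2 positive probe sets, at 0.04 and 0.06 and at 0.01 and 0.05. SNHG28 was at -0.01, SNHG18 at -0.10, SNHG22 at -0.11 and SNHG10 at -0.15, the last through LP-1/Cfz replicate 3 alone, which read -0.54. SNHG17 was negative on both of its probe sets (-0.15 and -0.12, adjusted p = 0.202 and 0.276), with LP-1/Cfz below LP-1 on every array. EPB41L4A-AS1 had 1 probe set on each side of 0 (-0.07 and 0.05). SEMA5A, the semaphorin gene next to SNHG18, passed lower on all 3 of its probe sets, by 0.35 to 1.07 on the log2 scale, while SNHG18 did not pass. MYO5B, which overlaps SNHG22, passed higher on 2 of 3 probe sets, up to 1.16, while SNHG22 did not pass.

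Many snoRNA host RNAs begin, like ribosomal protein messenger RNAs, with a terminal oligopyrimidine tract, so the annotated starts were read from RefSeq promoters (GRCh38.p14). A start was counted when it was a C followed by at least 4 bases that are each C or T. The starts in use in these cells were not measured, so a host without such an annotated start may still begin with the tract. Of 14 member hosts with a promoter sequence, 5 had such a start (35.7%: SNHG4, ZFAS1, SNHG18, SNHG19 and SNHG32), against 0 of 15 other members and 1404 of 27305 genes (5.14%). The windows of 20 bases before the start and 20 from it are shown for the 2 hosts that passed, for 2 hosts with the same kind of start that did not, and for GAS5, whose annotated start base is A. Capitals mark the start base together with the unbroken pyrimidine run that follows where the start is a pyrimidine.
SNHG4 (chr5:139274081-139274120, plus strand): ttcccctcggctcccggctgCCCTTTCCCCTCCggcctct
ZFAS1 (chr20:49278622-49278661, plus strand): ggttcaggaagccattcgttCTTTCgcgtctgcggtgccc
SNHG32 (chr6:31834896-31834935, plus strand): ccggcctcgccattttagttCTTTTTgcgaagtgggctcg
SNHG19 (chr16:2155339-2155378, minus strand): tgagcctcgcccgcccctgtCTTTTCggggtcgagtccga
GAS5 (chr1:173869026-173869065, minus strand): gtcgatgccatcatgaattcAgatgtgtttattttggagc

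The 5 hosts with such a start had differences from -0.43 to 0.11, so hosts with this start lay on both sides of 0. The antioxidant response element core, TGACNNNGC read on both strands, was found in the 300-base promoters (250 bases before and 50 from the start) of 2 of 14 hosts (SNHG4 and SNHG27) and 2 of 15 other members (MALAT1 and LINC00472), against 16.1% of all genes. A match describes the letters and is not a site shown to be bound.

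PCAT6 had the largest difference among the members. It is a long noncoding RNA named for prostate cancer and lies on chromosome 1. It read 0.68, 0.81 and 0.70 in LP-1/Cfz and 0.10, -0.13 and 0.02 in LP-1. Every LP-1/Cfz array was far above the LP-1 arrays. The difference was 0.73 (SE 0.0794, limma adjusted p = 0.00107), or 1.66-fold, and it passed with the replicate block, array weights, renormalization, median centring, robust variances and gene means, without each array in turn, and when tested against a 1.2-fold change, but lay under the 1.7-fold cutoff. RABIF, the protein-coding gene that follows PCAT6 after 66370 bases, had 2 probe sets at -0.14 and -0.12 that did not pass.

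FTX and JPX are neighbouring long noncoding RNA genes of the X inactivation centre, and FTX also holds 5 microRNA genes. Both FTX probe sets were higher in LP-1/Cfz. Probe set 242121_at read 0.66, 0.66 and 0.47 in LP-1/Cfz and -0.11, 0.09 and 0.02 in LP-1, a difference of 0.60 (SE 0.0831, limma adjusted p = 0.00343). Probe set 1558515_at read 0.57, 0.56 and 0.30 against -0.06, 0.07 and 0.00, a difference of 0.48 (SE 0.0872, limma adjusted p = 0.0114), and missed the threshold without LP-1 replicate 1 (adjusted p = 0.0519). On both probe sets the groups did not overlap, and LP-1/Cfz replicate 3 was the lowest of its group.

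JPX did not pass, and its result depended on which LP-1/Cfz array was left out. Its probe set 1554447_at read 0.48, 0.65 and -0.05 in LP-1/Cfz against -0.10, 0.23 and -0.13 in LP-1, and 1554448_at read 0.40, 0.39 and -0.09 against 0.00, 0.06 and -0.06. LP-1/Cfz replicates 1 and 2 lay above every LP-1 array on both probe sets, and replicate 3 lay within or below the LP-1 values. The differences were 0.36 and 0.23 (limma adjusted p = 0.281 and 0.331), and without LP-1/Cfz replicate 3 they were 0.56 and 0.40 (adjusted p = 0.0365 and 0.0121).

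Several neighbours of FTX were also higher. Of the 20 measured protein-coding genes nearest to FTX, 10 on each side, 11 were higher and 1 lower, with a median of 0.30. Over all genes, 16.7% passed in either direction. CHIC1, the neighbour before JPX, passed on 1 of 3 probe sets (0.48, limma adjusted p = 0.00537). ZCCHC13, the nearer neighbour on the other side of FTX, was at -0.17 and did not pass (adjusted p = 0.214). Over the X chromosome, 21.2% of 1291 single-gene probe sets were higher, beside 4.25% of all probe sets and 1976 of 41091 that name 1 gene. What part these neighbours have in the FTX values was not tested.

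OIP5-AS1, an abundant cytoplasmic RNA transcribed from the strand opposite OIP5 and also called cyrano, was lower on all 3 of its probe sets, and 2 passed. Probe set 225225_at read -0.37, -0.36 and -0.44 in LP-1/Cfz, while the LP-1 arrays were all at 0.00. Probe set 225332_at read -0.31, -0.36 and -0.46 against 0.02, 0.02 and -0.04. No array of one line fell among those of the other. The differences were -0.39 (SE 0.0581, limma adjusted p = 0.00445) and -0.38 (SE 0.0654, adjusted p = 0.00903), and both passed without each array in turn, but not when tested against a 1.2-fold change. The third probe set, 231808_at, read -0.21, -0.23 and -0.28 against 0.13, -0.12 and -0.01, a difference of -0.24 that missed the threshold (adjusted p = 0.0948). OIP5, which overlaps it, and CHP1, on its other side, did not pass, with differences of -0.07 to -0.04.

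**Figure D2:**
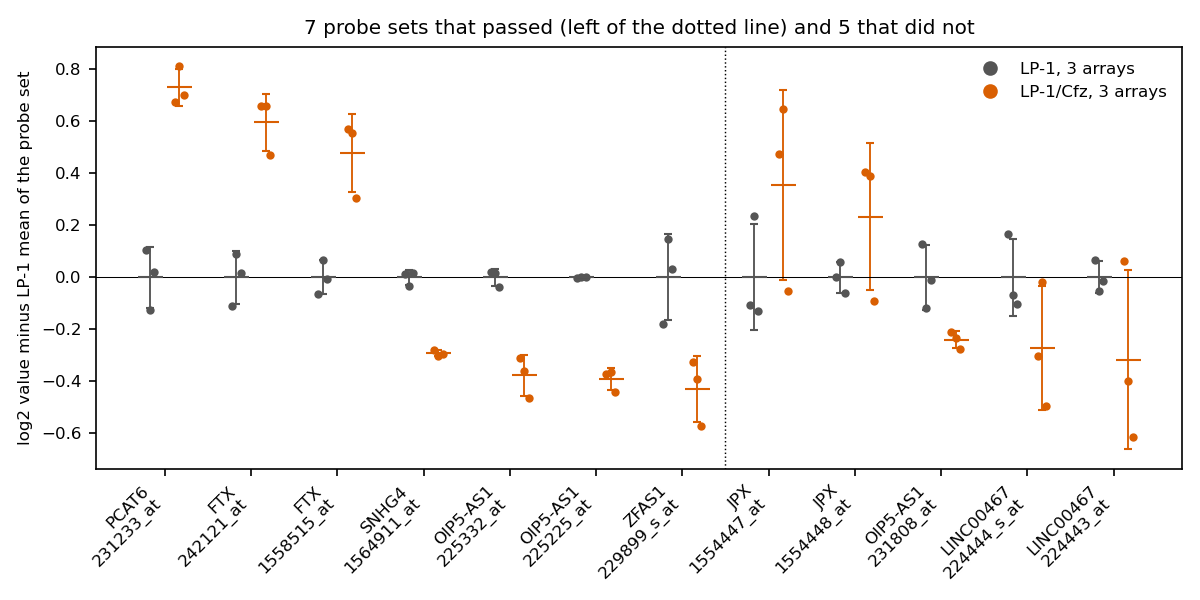
Value on each array (log2, with the mean of the LP-1 arrays set to 0) for the 7 member probe sets that passed, left of the dotted line, and for the third OIP5-AS1 probe set and both probe sets of JPX and LINC00467, which did not; bars are the mean ± SD of 3 arrays. Left of the line the arrays of both groups do not overlap, and right of it 1 LP-1/Cfz array of JPX lies within or below the LP-1 values.

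MALAT1, among the most abundant nuclear RNAs of most cells, was read by 12 probe sets, and none passed. The differences ran from -0.06 to 0.33, with 11 positive, and LP-1/Cfz lay above LP-1 on every array for 5. The lowest adjusted p belonged to 224559_at, which read 0.29, 0.34 and 0.10 in LP-1/Cfz and 0.02, -0.03 and 0.01 in LP-1, a difference of 0.25 (limma adjusted p = 0.0877). LP-1/Cfz replicate 3 was again the lowest of its group, and without it the difference was 0.32 (adjusted p = 0.0206). Without LP-1/Cfz replicate 1 it was 0.22 (adjusted p = 0.202). The largest difference, 0.33 on 226675_s_at, had the widest scatter, with LP-1 arrays from -0.24 to 0.31 (adjusted p = 0.308).

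NEAT1 lies near MALAT1 on chromosome 11, and all 9 of its probe sets also list MIR612, a microRNA gene inside its bounds. Of the 9, 6 passed, all higher in LP-1/Cfz. Probe set 214657_s_at read 1.13, 1.14 and 1.00 in LP-1/Cfz and -0.07, -0.04 and 0.11 in LP-1, a difference of 1.09 (SE 0.0756, limma adjusted p = 0.000114) or 2.13-fold. Probe sets 224566_at and 224565_at differed by 0.65 and 0.64 (adjusted p = 0.000790 and 0.00102), and these 3 also passed without each array in turn. Smaller differences of 0.42, 0.37 and 0.37 passed on 225239_at, 234989_at and 227062_at (adjusted p = 0.0125 to 0.0217), but all 3 missed the threshold without LP-1 replicate 1 (adjusted p = 0.0530 to 0.0894). Probe sets 227062_at and 234989_at also missed it without LP-1 replicate 2 or 3, and 234989_at without LP-1/Cfz replicate 1 or 2 (adjusted p = 0.0516 to 0.0721). The rest were at 0.22, 0.06 and -0.01 (adjusted p = 0.0668 to 0.968). Probe sets of NEAT1 thus ranged from -0.01 to 1.09, and their positions along the transcript were not analysed here. A test of NEAT1 against MALAT1 was not run.

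**Figure D3:**
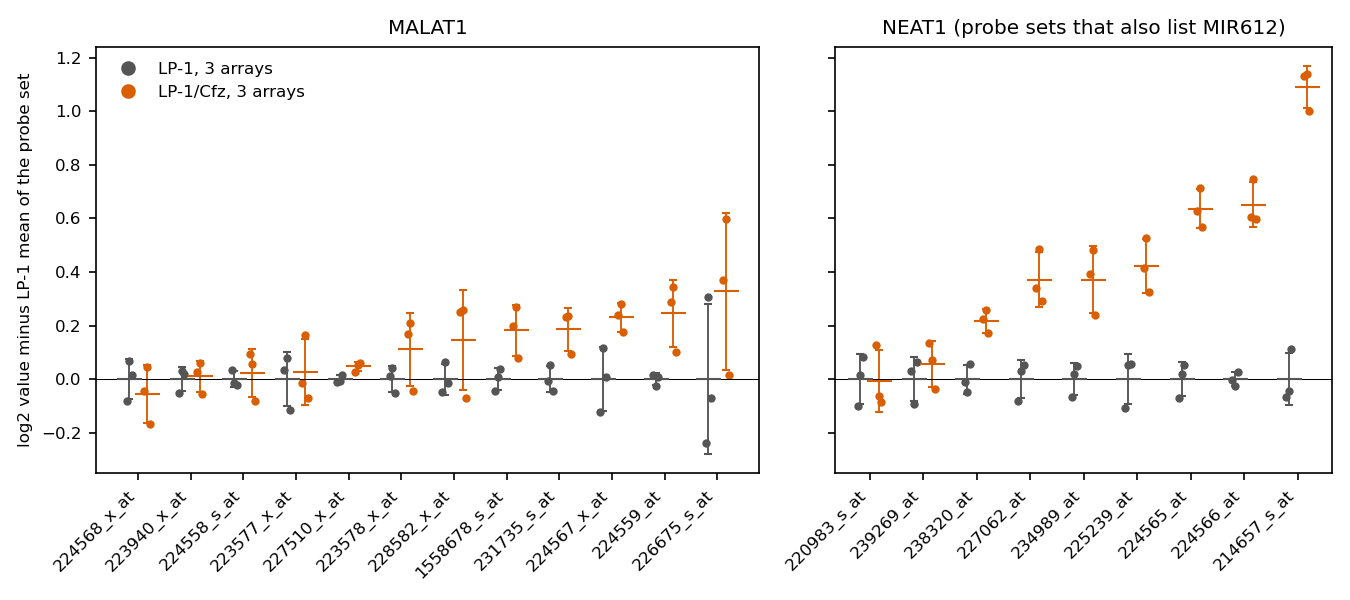
Value on each array (log2, with the mean of the LP-1 arrays set to 0) for 12 MALAT1 probe sets and 9 probe sets that list NEAT1 with MIR612; bars are the mean ± SD of 3 arrays. MALAT1 differences reach 0.33 with overlapping or close groups, while 7 of 9 NEAT1 probe sets have LP-1/Cfz arrays above all LP-1 arrays, up to a difference of 1.09.

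Among the 57 probe sets that list a member with other genes, 46 listed only small RNAs beside it, 11 of which passed, 7 higher and 4 lower. That is 23.9% of them, beside 11.0% of all probe sets, and 6 of the 11 were NEAT1 probe sets. PVT1, which lies downstream of MYC and holds MIR1204 among other microRNA genes, was lower on 1 of 4 such probe sets. That probe set, 1562153_a_at, read -1.02, -1.12 and -1.47 in LP-1/Cfz and -0.05, -0.07 and 0.12 in LP-1, a difference of -1.20 (SE 0.121, limma adjusted p = 0.000739). The other 3 ran from -0.18 to 0.04 and the probe set of PVT1 alone was at -0.07 (adjusted p = 0.631), so 1 of 5 PVT1 probe sets passed. MYC did not pass (0.06, adjusted p = 0.612).

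MIR155HG is the primary transcript of miR-155, a microRNA of activated lymphocytes. Its only probe set, shared with MIR155, read -1.20, -1.18 and -0.66 in LP-1/Cfz and -0.20, 0.04 and 0.15 in LP-1. All LP-1/Cfz arrays were lower, replicate 3 least so. The difference was -1.01 (SE 0.157, limma adjusted p = 0.00537), a 2.02-fold lower signal.

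MIR17HG, the primary transcript of the miR-17 cluster of microRNAs, differed between its 2 probe sets. The one listing all 6 microRNA genes of the cluster read 0.45, 0.43 and 0.35 in LP-1/Cfz and -0.07, 0.08 and -0.01 in LP-1, without overlap, a difference of 0.41 (SE 0.0672, limma adjusted p = 0.00711). The one naming MIR17HG alone was at 0.05 (adjusted p = 0.831). GPC5, the glypican gene that follows MIR17HG after a gap of 44044 bases, rose by 1.82 (limma adjusted p = 5.49e-05).

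The microRNAs these host transcripts carry are shown because a seed shared by several of them is read on the same target sites. The mature sequences are from RefSeq on GRCh38.p14, written 5′ to 3′, with bases 2 to 8, the seed, in capitals. The arrays read the host RNA, and mature microRNAs were not measured.
hsa-miR-17-5p (MIR17HG, chr13:91350618-91350640, plus strand): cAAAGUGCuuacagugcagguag
hsa-miR-20a-5p (MIR17HG, chr13:91351072-91351094, plus strand): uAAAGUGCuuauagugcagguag
hsa-miR-18a-5p (MIR17HG, chr13:91350756-91350778, plus strand): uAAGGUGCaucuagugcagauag
hsa-miR-19a-3p (MIR17HG, chr13:91350939-91350961, plus strand): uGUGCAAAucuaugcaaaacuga
hsa-miR-19b-3p (MIR17HG, chr13:91351245-91351267, plus strand): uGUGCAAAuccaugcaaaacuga
hsa-miR-92a-3p (MIR17HG, chr13:91351361-91351382, plus strand): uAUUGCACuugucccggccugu
hsa-miR-155-5p (MIR155HG, chr21:25573983-25574006, plus strand): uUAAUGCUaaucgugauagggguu
hsa-miR-15a-5p (DLEU2, chr13:50049167-50049188, minus strand): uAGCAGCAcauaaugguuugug
hsa-miR-16-5p (DLEU2, chr13:50049027-50049048, minus strand): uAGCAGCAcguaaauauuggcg
hsa-miR-374b-5p (FTX, chrX:74218587-74218608, minus strand): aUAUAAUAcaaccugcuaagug
hsa-miR-421 (FTX, chrX:74218392-74218414, minus strand): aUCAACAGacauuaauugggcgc
Within the cluster of MIR17HG, miR-17-5p and miR-20a-5p share one seed and miR-19a-3p and miR-19b-3p another, and in DLEU2 miR-15a-5p and miR-16-5p also share theirs.

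DLEU2, the host of miR-15a and miR-16 in the region of chromosome 13 often deleted in lymphoid tumours, did not pass on any of its 7 own probe sets, which ran from -0.18 to 0.19. A probe set that also lists DLEU2L and MIR15A was higher by 0.30 (limma adjusted p = 0.0381) and lost the call when any array other than LP-1/Cfz replicate 3 was left out (adjusted p = 0.0523 to 0.143). Among the hosts read with their snoRNAs, SNHG3 with SNORA73A read -0.21, -0.25 and -0.33 in LP-1/Cfz and 0.04, 0.01 and -0.06 in LP-1 (difference -0.26, limma adjusted p = 0.0371), and 1 of 3 SNHG29 probe sets differed by -0.24 (adjusted p = 0.0455). SNHG3 missed the threshold whichever array was left out (adjusted p = 0.0676 to 0.139), and SNHG29 whichever was left out other than LP-1/Cfz replicate 3 (adjusted p = 0.110 to 0.154). The other snoRNA hosts read this way, among them SNHG1, SNHG5, SNHG6, SNHG7, SNHG8, SNHG9, SNHG11, SNHG12, SNHG15, SNHG16 and SNHG20, did not pass, with differences from -0.22 for SNHG20 to 0.08 for SNHG11. SNHG10 with SCARNA13 (0.14 and 0.23) and SNHG17 (0.23) did not pass either. The 26 host probe sets of this kind had a median of 0.00. MIR22HG was at -0.01.

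**Figure D4:**
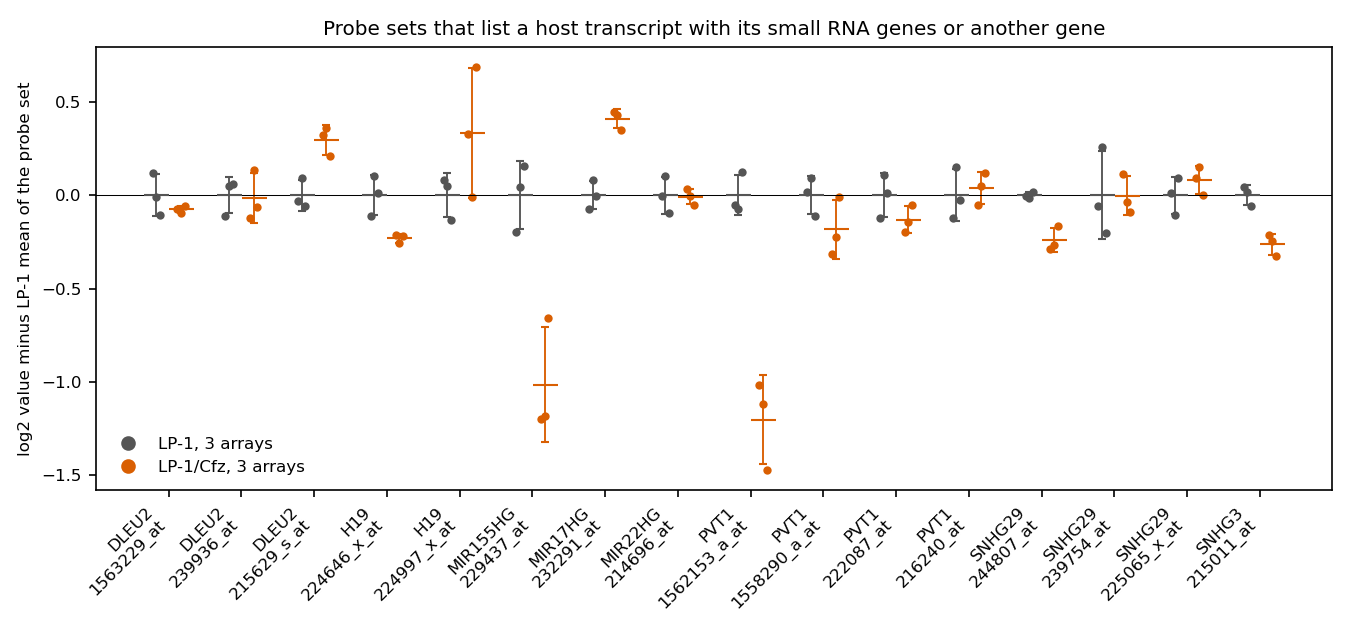
Value on each array (log2, with the mean of the LP-1 arrays set to 0) for probe sets that list a host transcript with its small RNA genes or, for DLEU2L, with another gene; bars are the mean ± SD of 3 arrays. The LP-1/Cfz arrays lie lowest on 1 probe set of PVT1 and on that of MIR155HG, and above all LP-1 arrays on that of MIR17HG.

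None of the imprinted RNAs passed. MEG3, an imprinted maternal transcript, had 10 probe sets from -0.14 to 0.09, evenly split in sign. KCNQ1OT1, an antisense RNA that silences neighbours on the paternal copy, had 5 positive probe sets from 0.01 to 0.17 (lowest limma adjusted p = 0.191), while CDKN1C, a cell cycle inhibitor in its imprinted region, passed higher on 3 of 5 probe sets, up to 0.49. H19, read with MIR675, was at -0.23 and 0.33 on its 2 probe sets (adjusted p = 0.0845 and 0.255), which had opposite signs.

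LINC00467 had the lowest values among the rest, at -0.32 and -0.27 (limma adjusted p = 0.261 and 0.246). Its first probe set read 0.06, -0.40 and -0.61 in LP-1/Cfz against 0.07, -0.05 and -0.02, so that 1 LP-1/Cfz array lay with LP-1. The result of this probe set changed with the array dropped. Dropping that array, replicate 1, gave a difference of -0.51 (limma adjusted p = 0.0216). Dropping replicate 3 of the same line gave -0.17 (limma adjusted p = 0.511). The second LINC00467 probe set did not pass either time, at -0.26 and -0.16 (limma adjusted p = 0.380 and 0.477). TP53TG1, a p53-induced RNA, was negative on 3 probe sets from -0.16 to -0.09. LINC00472 was positive on both, at 0.14 and 0.15. DLEU1 was at 0.10, CYTOR at 0.04 and LINC00115 at -0.03, and CRNDE had probe sets at -0.13 and 0.00. TUG1 (6 probe sets, -0.10 to 0.19), LINC01128 (6, -0.21 to 0.10) and MIAT (4, -0.07 to 0.20) had values on both sides of 0.

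Protein genes that act on these RNAs were counted from the same fit. Of 20 probe sets of box C/D and H/ACA snoRNP proteins, 4 were lower and 0 higher, with a median of -0.17. These were 2 of 3 probe sets of RUVBL2, an assembly ATPase (-0.43 and -0.37), and 2 of 3 of NOLC1, a nucleolar chaperone (-0.42 and -0.31). Of 26 probe sets of nonsense-mediated decay factors, which clear many spliced host RNAs, 4 were lower and 0 higher (median -0.09). They were led by 1 of 3 SMG9 probe sets at -0.51 and the only UPF2 probe set at -0.44. DHX34 passed on 2 of 3, at -0.29 and -0.27.

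Of 40 probe sets of the RNA exosome and its cofactors, 6 were lower and 0 higher (median -0.11). They were led by 2 of 6 EXOSC3 probe sets (-0.36 and -0.28), 1 of 2 of ZCCHC8 (-0.35) and 1 of 2 of RBM7 (-0.30). Of 36 probe sets of speckle and splicing factors, 5 were lower and 0 higher (median -0.14). They were led by 1 of 2 SRSF6 probe sets at -0.48. SRSF7 passed on 2 of 4, at -0.36 and -0.31, and SRSF3 on 1 of 6, at -0.36. Paraspeckle proteins, the partners of NEAT1, had 2 higher and 3 lower of 34 probe sets (median -0.08). NONO was higher on 2 of 3, at 0.28 and 0.22. Lower were 1 of 3 RBM14 probe sets (-0.46) and 1 of 2 of both RBM7 and RBM3 (-0.30 each). The other RBM3 probe set was at -0.03 and did not pass. Of 25 probe sets of microRNA processing genes, 1 passed, for TARBP2, a partner of Dicer, at 0.51. The other TARBP2 probe set was at 0.09 and did not pass. The lists hold only probe sets that name 1 gene, of which 12.7% passed over the array, beside 11.0% of all probe sets. The share was 4% for the microRNA processing genes and 13.9% to 20% for the other 5 lists. In 4 of these every probe set that passed was lower, 13.9% to 20% of the list. Over the array, 3225 of 41091 probe sets that name 1 gene were lower, and 6.76% of all probe sets. No test of the lists was run.

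Markers of the cells themselves were checked beside these results. Plasma cell markers had 6 probe sets higher and 1 lower of 15, or 46.7% passing against 11.0% of all probe sets and 12.7% of those that name 1 gene. CD38 was at -1.07, and MZB1 (0.44), SDC1 (0.39) and 1 of 2 XBP1 probe sets (0.33) were higher, while the other XBP1 probe set was at -0.20 and did not pass (adjusted p = 0.262). None of 6 T and NK cell, 6 myeloid and 22 stromal marker probe sets passed. The deposited values are centred, so they do not show whether any marker is present or at background.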

How the data were processed

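The 3 LP-1/Cfz and 3 LP-1 Affymetrix arrays were analysed from the deposited log2 values. The submitters' processing notes name RMA, and the authors deposited log2 values centred per probe set on an unstated baseline, so differences can be read but levels, signal over background and a filter on dim probes cannot. Direction was taken from columns named for the samples. Scan dates were not used.

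Differences were fitted over all 54613 probe sets with limma 3.58.1 (lmFit and eBayes, R 4.3.3), with Benjamini-Hochberg adjustment. Tables and figures were made with Python 3.11.15, pandas 2.3.3 and matplotlib 3.10.9, and the fit was tested on simulated data. Platform annotation named 1 gene for 41091 probe sets, several for 1801 and none for 11721. Of the 35 member genes, 34 were found in RefSeq (GRCh38.p14) by symbol, and SNHG24 was not. TUG1, a listed member, is entered there as a protein-coding gene. RefSeq placed a snoRNA gene within 11 of the 14 host genes found there and within none of the other members. The members, lists, neighbours and motifs were chosen with earlier results of these data known.

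Every measured member was named, with values on each array for those that passed and for MALAT1, NEAT1 and GAS5. From each protein list up to 3 genes per direction were named by size. Alternatives were a replicate block, array weights, renormalization, median centring, robust variances, limma's treat at 1.2-fold, the 1.7-fold cutoff, gene means, shared probe sets, and leaving out each array. With 3 arrays against 3, an exact permutation test cannot give a p below 0.1, so limma's shared variance was used, and the number of arrays limits the precision. The p-values therefore cover array-to-array spread, which may be technical.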

Additional observations from a re-analysis of the deposited data

How the results depend on the processing

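No difference of a probe set that passed changed sign under any alternative run on it. The 7 member calls (3 higher, 4 lower, beside 6014 of all probe sets) were 7 after quantile normalization, median centring or robust variances and 8 with array weights. Leaving out each array in turn gave 5 to 9 calls in all, 2 to 6 higher and 2 to 4 lower, and 3395 to 5355 of all probe sets; the host median ran from -0.0764 to 0.0180, its positive value without LP-1/Cfz replicate 3, and the median of other members from 0.00510 to 0.0543. Without LP-1/Cfz replicate 3, JPX (2 probe sets) and MALAT1 (1) were added and ZFAS1 was lost. Without LP-1/Cfz replicate 1, 1 LINC00467 probe set was added. Testing against a 1.2-fold change with treat left 1 call, higher (PCAT6), 0 lower, and 1312 of all probe sets. The 1.7-fold cutoff left 0 members in either direction and 867 of all probe sets, whereas limma at an unadjusted p under 0.05 took 17 members and 13248 of all probe sets. Averaging by gene gave 4 calls, 2 of them lower, and a host median of -0.0115. Adding the 57 probe sets that list a member among several genes gave 19 calls, 11 higher and 8 lower, and a host median of -0.00738. Of the 57, 12 passed (21.1%), beside 7.45% of the 94 members and 11.0% of all probe sets. Adding only the 46 with small RNAs, an alternative chosen after seeing the data, gave 18, of which 10 were higher and 8 lower. Of the 46, 11 passed (23.9%).

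The labels leave unsaid whether replicate numbers pair the samples. Correlations of same-numbered deviations were -0.05, 0.13 and -0.01, and those of differently numbered arrays ran from -0.12 to 0.13. They showed no pairing, but with 3 arrays per group they cannot exclude it. With the replicate number as a block there were 5 member calls, 3 higher and 2 lower, and 4544 over all probe sets. SNHG4 (adjusted p = 0.0509) and ZFAS1 (adjusted p = 0.0568) missed the threshold there, as did the shared probe sets of SNHG3, DLEU2 and SNHG29.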
